A study of Oncorhynchus mykiss with 24 samples.

Results

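Whole rainbow trout embryos (Oncorhynchus mykiss) of 28 days post fertilization (dpf), when hatching begins, were compared with embryos of 15 dpf, when the eyes become visible. All arrays labelled 15 or 28 dpf were taken, which gave 16 embryos on 8 arrays at each time point, or 32 of the 48 embryos and 16 of the 24 arrays of the series. At each time point there were 4 OSU/CW females, 4 OSU/OSU females, 4 OSU/CW males and 4 OSU/OSU males. The embryos came from repeated backcrossing, the BC4 generation, between the fast developing Clearwater line (CW) and the slow developing Oregon State University line (OSU), both of them clonal, and were reared at a common temperature. OSU/CW embryos carried a Clearwater and an Oregon State copy at the major quantitative trait locus (QTL) for development rate, and OSU/OSU embryos carried the Oregon State copy only, as read from microsatellite markers. Sex was read from a Y chromosome marker. Each group therefore samples a narrow genetic background, and the QTL genotype covers a chromosome segment and not a known gene.

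In a salmonid embryo the axial muscle, the lens, the liver and the first red blood cells form before hatching. Fast muscle fills with myosin, with the troponins and tropomyosin that switch contraction on, and with parvalbumin, the calcium buffer that speeds relaxation. Its energy comes largely from glycolysis and from phosphocreatine. Lens fibre cells load crystallins, the liver begins to secrete plasma proteins, and the skin makes keratins and collagens. At the same time the fraction of dividing cells falls as tissues differentiate.

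RNA of each embryo was labelled with Cy3 or Cy5 and hybridized to a salmonid cDNA array. Its spots, here called features, carry salmonid ESTs, short stretches of expressed genes. An array paired embryos of equal age and sex but different genotype, so the ages were compared between arrays, 8 against 8. Of 16028 EST identifiers, 11653 were bright enough to be tested and 4375 were not. Values are log2 spot intensities after background correction and normalization, and differences are 28 minus 15 dpf, so that 1 unit is a doubling. A feature was called where limma's test over all 16 embryos at each time point had an adjusted p below an FDR of 0.05.

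The arrays of 15 and 28 dpf also differed in ways that do not name a gene. Spot signal over local background, the closest measure of depth on an array, was 1.29 to 1.78 (mean 1.51 ± 0.149 SD, n = 8 arrays) at 15 dpf and 1.92 to 3.51 (2.54 ± 0.467, n = 8) at 28 dpf, with no overlap (exact permutation test, two-sided, p = 0.000155, the smallest p that 8 against 8 arrays allow). The share of EST spots above the negative controls was 50.6% ± 7.92 at 15 dpf and 68.6% ± 9.39 at 28 dpf (exact permutation p = 0.00233). Spots of Arabidopsis DNA lay at 12.92 ± 0.356 at 15 dpf and 11.51 ± 0.272 at 28 dpf on the log2 scale after normalization, and spots of GFP at 13.08 ± 0.249 and 11.93 ± 0.297 (exact permutation p = 0.000155 for each, n = 8 arrays). A common shift of all features between the ages can therefore not be told apart from the normalization, and the changes below are relative to the bulk of the features, whose median difference was 0.02.

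Each array has 48 sub-grids. On 5 sub-grids of the 28 dpf arrays, and on none at 15 dpf, the values did not match the spot names. These lay on male array 33 (3 sub-grids), male array 23 (1) and female array 38 (1). Their correlation with the other 28 dpf arrays was -0.103 to 0.0933 as deposited and 0.928 to 0.967 after a move by 1 row, against 0.546 or more in every other sub-grid of the 16 arrays. They hold 1347 identifiers, 846 of them tested. They were kept in the values below, and wherever a named feature lies on such a sub-grid its value without it is given too, or, where too few values remained for that test, its value without the array. A further sub-grid, on female array 15 of 19 dpf, was displaced too and lay in the fit of all 24 arrays.

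**Figure D1:**
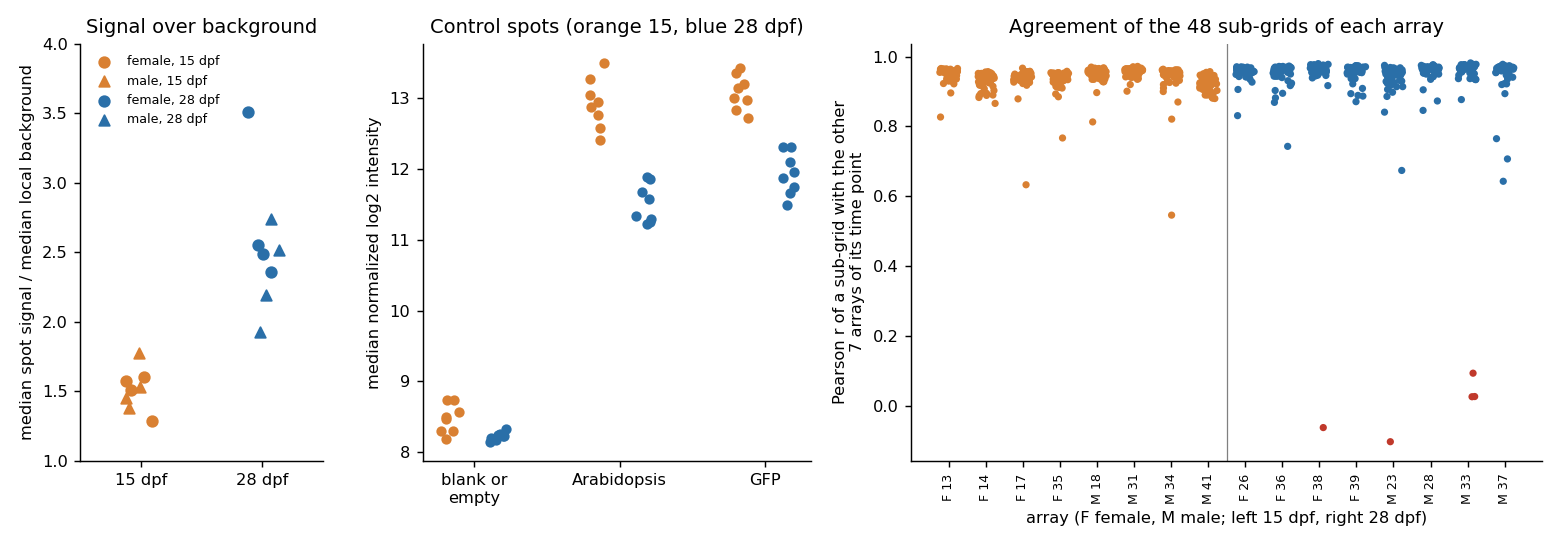
Array quality at 15 and 28 dpf. Left, median spot signal over median local background of each array, 1.29 to 1.78 at 15 dpf and 1.92 to 3.51 at 28 dpf. Middle, median normalized log2 intensity of blank, Arabidopsis and GFP spots, 1 point per array. Right, Pearson correlation of each of the 48 sub-grids of an array with the other 7 arrays of its time point, where the 5 displaced sub-grids (red) sit between -0.103 and 0.0933.

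The late embryos differed from the early ones over much of the array, with muscle genes frequent among the largest rises and with falls of lesser size. At 28 dpf 2230 features were higher (19.1% of those tested) and 2145 lower (18.4%), which together made 4375 (37.5%). The calls were close to even in number and uneven in size. At least 2-fold differences were seen in 946 higher and 857 lower features, at least 4-fold in 184 and 22, at least 8-fold in 53 and 0, and at least 16-fold in 20 and 0. The largest rise was 5.91 and the largest fall -2.93, while the median called rise was 0.93 and the median called fall -0.90. Measured values of the late and the early embryos did not overlap at all in 327 features (2.81% of those tested). Of these 277 were higher and 50 lower at 28 dpf. Missing spots did not enter this count, and 4603 of the tested features had values in all 32 embryos. Without the displaced sub-grids 2282 features were higher and 2153 lower, and of the 4368 called features that could still be tested 2205 stayed higher and 2106 lower. Of the called features 3304 carried a description (2262 different descriptions) and 1071 did not.

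Features that rose were dimmer at 15 dpf than features that fell. This follows at least in part from the choice of features, which were called on these same values. The median rising feature went from 10.69 to 11.77 and was above the negative controls in 8 of 16 embryos at 15 dpf and in 16 of 16 at 28 dpf. The median falling feature went from 11.74 to 10.66 and was above the controls in 13 embryos at each time point. Among the rising features 92 were above the controls in no embryo of 15 dpf, and among the falling features 1 was above them in no embryo of 28 dpf. With the features divided into 5 equal bins of mean level, 19.3% of the dimmest and 13.9% of the brightest features were called higher, and 13.1% and 12.1% were called lower. Calls were more frequent between these ends, with 24.7% and 24.8% lower in bins 2 and 3 from the dim end and 23.2% higher in bin 4. The signal over background moved with age as given above, and its part in these counts was not tested.

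**Figure D2:**
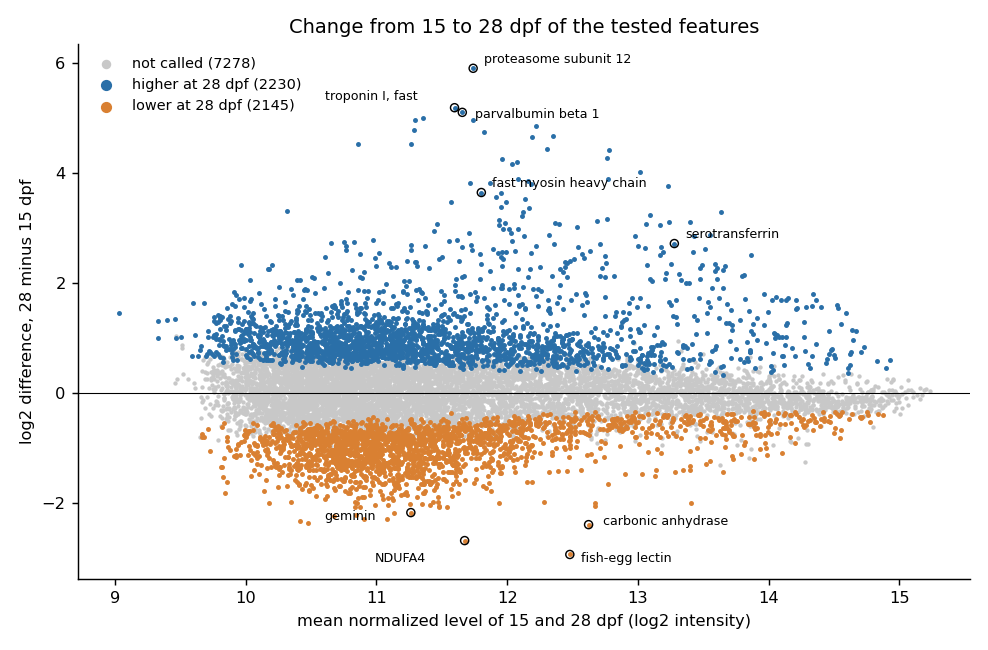
Difference between 28 and 15 dpf (log2, vertical axis) of the 11653 tested features against their mean normalized level (log2 intensity, horizontal axis). The 2230 features called higher (blue) reach 5.91 and the 2145 called lower (orange) reach -2.93, and the 7278 features that were not called are grey.

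Fast muscle genes were frequent among the largest rises. Parvalbumins led, with 22 of 23 tested features higher at 28 dpf, none lower and a median difference of 4.28, against 0.02 over all tested features. In that full set 19.1% were higher and 18.4% lower. Of the thin filament proteins (actins, troponins and tropomyosins of muscle) 42 of 52 were higher and none lower, with a median of 1.501, and of the muscle myosins 36 of 40 with a median of 1.63. Sarcoplasmic calcium pumps, calcium-binding proteins and creatine kinases were higher in 43 of 50, with a median of 1.77. In whole embryos, more cells of a type and more RNA per cell cannot be told apart.

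Parvalbumin beta 1 (CA770081) had log2 levels of 7.86, 9.18 and 9.70 (lowest, median and highest of 16 embryos) at 15 dpf and of 13.27, 14.35 and 14.62 (14 embryos) at 28 dpf. The groups were separated by more than 3 log2 units, and no early embryo was above the negative controls. The difference was 5.11 ± 0.28 (SE, adjusted p = 7.55e-18). The early value is only a bound, and with it the rise was 33.7-fold. Such a bound sets the mean of the bright group against the higher of the dim spot and the lowest signal above the controls on each array. It makes no allowance for sampling error, so the rise can be smaller. Without background subtraction the median difference of the tested parvalbumins was 2.64 in place of 4.28. Parvalbumin beta 2 (CB509702) went from a median of 8.77 to 13.93, or 32.1-fold with such a bound, and parvalbumin-2 (CB497079) from 9.20 to 14.36 (difference 4.97 ± 0.25). In a parvalbumin beta of Atlantic salmon (CK991248), which was above the controls in 10 early embryos, the median went from 10.92 to 14.98 (difference 4.02 ± 0.27). The subset of 21 features described as parvalbumin beta or parvalbumin-2, drawn with its values known, was called higher throughout, by 1.87 to 5.11.

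Among the thin filament genes the fast isoforms stood out. Fast skeletal troponin I (CB509543), the inhibitory subunit that holds actin and myosin apart at rest, ranged from 7.50 to 10.10 with a median of 9.22 at 15 dpf and from 13.59 to 14.67 with a median of 14.17 at 28 dpf. The lowest late embryo was above the highest early embryo, and the difference was 5.19 ± 0.30 (adjusted p = 3.07e-17), or 36.5-fold. Fast troponin T (CB498116), which anchors the troponin complex to tropomyosin, went from 10.26, 11.28 and 12.71 to 14.72, 15.10 and 15.59 (difference 3.76 ± 0.20, adjusted p = 1.76e-18). All 11 fast troponin features were higher, with a median of 3.05, and 3 of 7 features of slow or cardiac troponins were higher, with a median of 0.28. Alpha cardiac actin was higher in 7 of 10 features (median 1.08). These subsets were drawn after their values were seen and carry no test.

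Myosins of fast fibres rose likewise. The fast skeletal myosin heavy chain, the motor of the thick filament, was represented in CB497013 by 8.72, 9.89 and 11.44 at 15 dpf and by 13.02, 13.48 and 14.23 at 28 dpf (difference 3.65 ± 0.24, adjusted p = 1.56e-15). No late embryo overlapped with an early embryo. All 11 features of this chain were higher (median 1.70), as were all 8 of skeletal light chains 1 and 3 (median 2.36). Light polypeptides 4 and 6, the latter known from smooth muscle and other cells, were higher in 7 of 10 features with a median of 0.51. Cardiac light chain 1 was higher in 3 of 4.

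The pump and the enzymes that serve contraction followed. SERCA1 (CB510691), the pump that returns calcium to the sarcoplasmic reticulum of fast fibres, went from 9.20, 10.10 and 11.92 to 13.39, 13.96 and 14.92 (difference 3.80 ± 0.28, adjusted p = 1.74e-13), and its groups did not overlap. All 14 calcium pump features were higher (median 2.65). Creatine kinase, which regenerates ATP from phosphocreatine, was higher in 18 of 21 features (median 1.58).

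**Figure D3:**
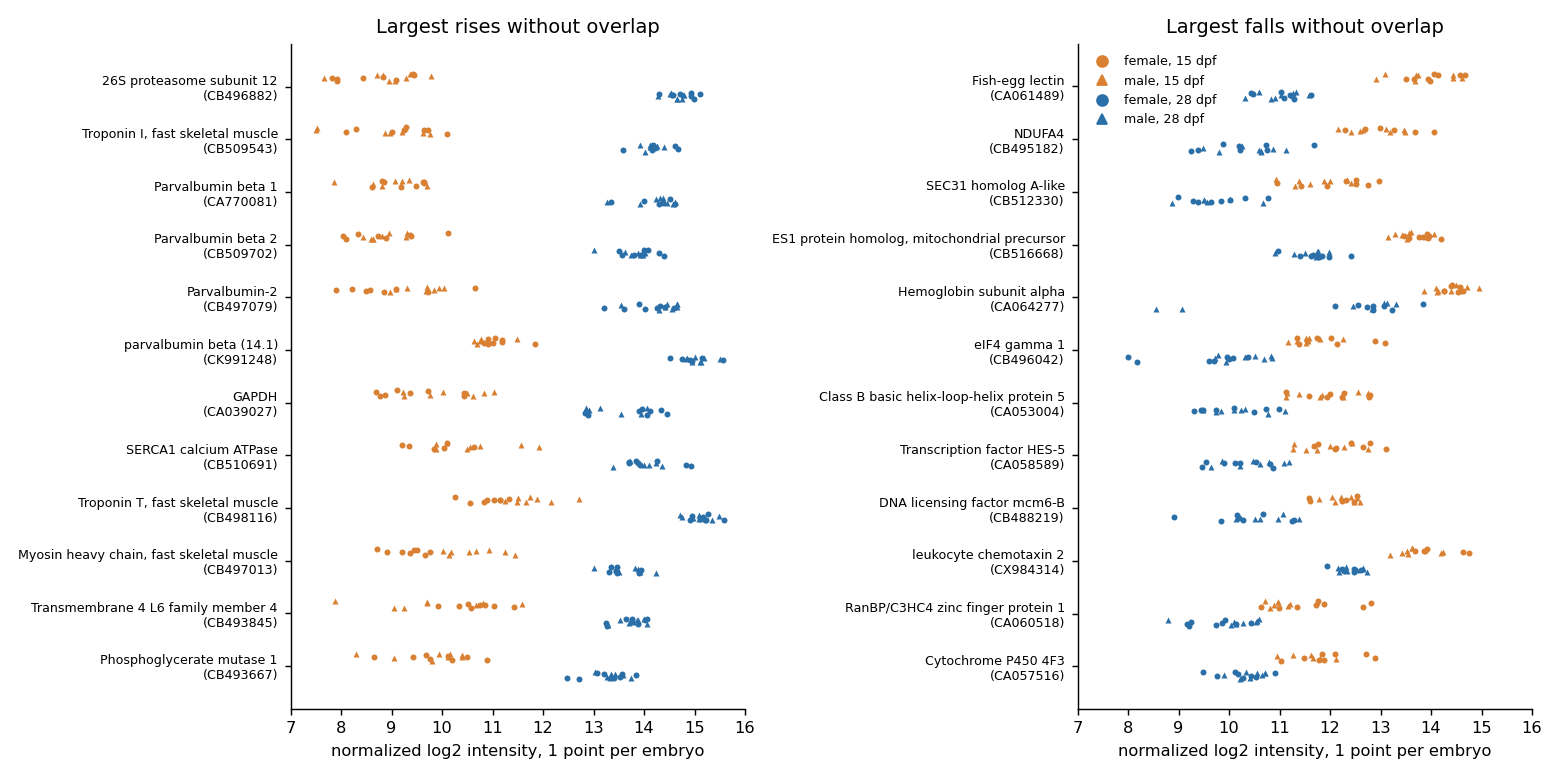
Normalized log2 intensity (horizontal axis) of single embryos for the 12 described features with the largest rises (left) and falls (right) whose 15 dpf (orange) and 28 dpf (blue) values did not overlap. Each description is shown by 1 feature only, and features missing in more than a few embryos are left out. Circles are females and triangles males. Parvalbumin beta 1 (CA770081) reaches at most 9.70 at 15 dpf and at least 13.27 at 28 dpf, and the fish-egg lectin (CA061489) lies at 12.91 or more at 15 dpf and at 11.61 or less at 28 dpf.

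The largest rise on the array was carried by a feature described as 26S proteasome non-ATPase regulatory subunit 12, a subunit of the cap that feeds proteins to the proteasome (CB496882). Its levels were 7.67, 8.90 and 9.78 at 15 dpf, above the controls in none of 16 embryos, and 14.28, 14.69 and 15.11 at 28 dpf. The difference was 5.91 ± 0.26 (adjusted p = 9.21e-20), a rise of 59.4-fold with the early values set to the bound given above. It was 6.15 in females and 5.66 in males. The other 2 features of the same description were not called, and the description was not checked against the spotted sequence. Of the 140 proteasome features 12 were higher and 37 lower (8.57% and 26.4%, against 19.1% and 18.4% of all tested features), with a median of -0.09. Proteasome activator complex subunit 3 (CB487670), a regulator of the nuclear proteasome, fell from 11.04, 12.36 and 13.90 to 9.31, 10.30 and 11.44 (difference -2.02 ± 0.25, adjusted p = 2.97e-08).

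Glycolytic enzymes were mostly higher, with 58 of 87 features higher, 2 lower and a median of 1.01. Higher and lower shares were 66.7% and 2.3%, against 19.1% and 18.4% of all tested features. Glyceraldehyde-3-phosphate dehydrogenase (GAPDH) led in CA039027, from 8.70, 9.74 and 11.02 at 15 dpf to 12.82, 13.92 and 14.45 at 28 dpf (difference 3.82 ± 0.31, adjusted p = 9.46e-13). Its early and late embryos did not overlap, and 23 of 27 GAPDH features were higher (median 2.30). Phosphoglycerate mutase 1 (CB493667), a later step of the pathway, went from a median of 10.03 to 13.34 (difference 3.47 ± 0.22, adjusted p = 1.22e-16), again without overlap. Enolase was higher in 11 of 14 features and aldolase in 9 of 14. Muscle type 6-phosphofructokinase (CB498267), the committed step, went the other way, from a median of 11.98 to 11.42 (difference -0.85 ± 0.23, adjusted p = 0.00463), with overlapping groups of 12 embryos each.

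Genes of the respiratory chain and ATP synthase were higher in 112 of 289 features (38.8%) and lower in 16 (5.54%), with a median of 0.40. Over all tested features these shares were 19.1% and 18.4%. Cytochrome c oxidase polypeptide VIa (CB496806), a subunit of the last complex of the chain, went from 8.43, 9.64 and 10.16 to 10.46, 11.34 and 12.31 (adjusted p = 1.26e-06). With early values set to the bound given above the rise was 3.65-fold. A large fall stood in the same list. NDUFA4 (CB495182), described as a subunit of complex I, went from 12.15, 13.05 and 14.06 to 9.25, 10.42 and 11.68 (difference -2.68 ± 0.23, adjusted p = 4.15e-12), without overlap. A further NDUFA4 feature (CB496804) rose by 1.52 (adjusted p = 3.41e-06), so features with this description did not move together.

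Lens genes rose nearly throughout. Of 44 tested crystallins, the proteins that make the lens transparent and refractive, 41 were higher and 1 lower, with a median of 2.07. The shares were 93.2% and 2.27%, against 19.1% and 18.4% of all tested features. Gamma crystallins M, the fish-specific crystallins of the lens core, were higher in all 21 features (median 2.32) and beta crystallins in 17 of 18 (median 1.86). Gamma crystallin M2 (CB497240) went from 8.98, 10.00 and 10.86 at 15 dpf to 9.30, 14.49 and 15.03 at 28 dpf. It was above the controls in no early embryo, so its early level is only a bound. The fitted difference was 3.64 (adjusted p = 1.24e-07). This feature lies on a displaced sub-grid of array 33, whose embryos are the low ones at 28 dpf. Without the displaced values the fitted difference was 4.53 (adjusted p = 9.57e-14). The member that fell, crystallin J1B (CA042064), is in the list by its name alone, and whether it is a lens protein was not checked. Its fall was 0.58 ± 0.18 (adjusted p = 0.0123), from a median of 11.66 to 11.17 with overlap.

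Retina genes did not move together. Of 20 features 4 were higher and 5 lower (20% and 25%), close to the shares over all features, with a median of 0.10. Transducin gamma-T1 (CB509568), a G protein subunit of phototransduction, went from a median of 10.79 to 12.58 (difference 1.67 ± 0.28, adjusted p = 1.56e-05). Cellular retinaldehyde-binding protein (CA051515), which carries retinoid in the visual cycle, went from 11.53 to 10.17 (difference -1.48 ± 0.35, adjusted p = 0.000951). Of 4 opsin features, drawn with their values known, 3 were lower, the farthest with a difference of -0.83 (CK991139).

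In skin and skeleton genes, isoforms differed. Collagens were higher in 31 of 46 features and lower in none (median 0.73), and other matrix proteins in 12 of 19 (median 0.85). Over all tested features 19.1% were higher and 18.4% lower. The alpha-1 chain of collagen X (CB498566), known from hypertrophic cartilage in mammals, went from 9.17, 10.19 and 11.30 to 11.40, 12.28 and 13.06 (difference 2.04 ± 0.30, adjusted p = 1.11e-06), with no overlap. Periostin (CB493378), a matrix protein of bone and connective tissue, went from 9.56, 10.35 and 11.45 to 11.60, 12.20 and 12.99 (difference 1.88 ± 0.22, adjusted p = 1.25e-08). Collagen X was higher in all 5 features, collagen I in 18 of 22 and collagen VI in 0 of 6. Keratins were higher in 20 of 45 and lower in 3 (median 0.36). The type II keratin E1 (CB510619) went from 9.06, 10.10 and 11.61 to 11.82, 12.18 and 12.54 (difference 2.05 ± 0.26, adjusted p = 1.06e-07). Keratin 13 with keratins E1 and E2 was higher in 17 of 20 features (median 0.83), and keratins 8 and 18, the pair of simple epithelia, in 1 of 18 with 1 lower (median -0.24). Type II keratin 5 (CB497422) fell by 0.69 ± 0.20 (adjusted p = 0.00492).

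Genes of liver and gut rose in part. Plasma proteins of the liver were higher in 32 of 108 features (29.6%) and lower in 8 (7.41%), with a median of 0.35. Over all tested features these shares were 19.1% and 18.4%. Calls in either direction made 37% of this list and 37.5% of all tested features. Serotransferrin (CB497986), the iron carrier of plasma, went from 11.12, 11.86 and 12.90 (12 embryos) to 14.00, 14.65 and 15.09 (14 embryos), a difference of 2.72 ± 0.22 (adjusted p = 3.64e-12) without overlap. Serum albumin 1 in CA038058 rose by 1.90 and alpha-2-HS-glycoprotein in CB497571 by 1.79. Complement C3-1 was split, with a fall of 1.36 ± 0.32 in CB514355 (adjusted p = 0.00105) and a rise of 1.59 in CB497970. Lipid carriers inside the cell, the fatty acid-binding proteins, were higher in 20 of 35 features and lower in 1 (median 0.75), the intestinal form in all 6 features (median 1.45). The liver form in CK990953 went from 8.47, 9.22 and 10.59 to 10.38, 12.20 and 13.11 (difference 2.67 ± 0.35, adjusted p = 1.16e-07), while liver form 1 in CB488623 fell by 1.40 ± 0.35 (adjusted p = 0.00228), or by 1.46 without the displaced sub-grids.

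Apolipoproteins, the protein part of lipoprotein particles, had no common direction, with 10 of 53 higher (18.9%), 9 lower (17%) and a median of 0.00. Apolipoprotein A-IV (CB493958), made by the intestine in mammals, went from 10.48, 11.57 and 12.84 to 13.92, 14.56 and 15.16 (difference 3.08 ± 0.25, adjusted p = 7.93e-13), without overlap. Apolipoprotein Eb (CB497987) fell by 1.13 ± 0.28 (adjusted p = 0.00147). It lies on a displaced sub-grid, and without the displaced values the fall was smaller (difference -0.80, adjusted p = 0.000985). In Eb features elsewhere the falls were 0.90 (CA058895, adjusted p = 0.000621), 0.77 (CA040414, 0.0125) and 0.75 (CB500771, 0.00176).

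Digestive, hatching and egg genes formed short lists. Enzymes of the exocrine pancreas were higher in 7 of 26 features and lower in 2 (26.9% and 7.69%, against 19.1% and 18.4% of all tested features). Trypsin (CK990912) went from 7.95, 9.43 and 11.62 to 10.67, 11.79 and 12.33 (difference 2.0 ± 0.37, adjusted p = 5.17e-05). Chymotrypsin B (CA050822) fell by 1.0 ± 0.28 (adjusted p = 0.00469) and by 1.15 without the displaced sub-grids. Without female array 14 of 15 dpf its call was lost (difference -0.61, adjusted p = 0.0583). Of 6 hatching gland features 1 was higher, high choriolytic enzyme 2 (CK991012), a protease that softens the egg shell, which rose by 1.10 ± 0.26 (adjusted p = 0.00103), and the 5 features of high choriolytic enzyme 1 were not called. Egg and oocyte genes were higher in 3 and lower in 4 of 17 (17.6% and 23.5%). A feature of the yolk precursor gene vtg1 (CB509466) went from 9.55, 11.62 and 12.26 to 13.07, 13.68 and 14.41 (difference 2.40 ± 0.26, adjusted p = 7.9e-10), without overlap, and a further vitellogenin feature (CA051633) fell by 1.48 ± 0.28 (adjusted p = 6.13e-05).

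The largest fall on the array was that of the fish-egg lectin (CA061489), a sugar-binding protein first isolated from fish eggs. Its levels were 12.91, 13.96 and 14.66 at 15 dpf and 10.32, 11.06 and 11.61 at 28 dpf. All 16 late embryos were below the lowest early embryo, and the difference was -2.93 ± 0.22 (adjusted p = 5.74e-14). By sex it was -3.02 (females) and -2.84 (males), and by genotype -3.0 (OSU/CW) and -2.86 (OSU/OSU).

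Genes of red blood cells fell more often than they rose. Hemoglobins were lower in 19 of 58 features and higher in 4 (32.8% and 6.90%), with a median of -0.39. Over all tested features 18.4% were lower and 19.1% higher. Calls in either direction made 39.7% of this list and 37.5% of all tested features. Hemoglobin alpha (CA064277) went from 13.85, 14.41 and 14.96 to 8.55, 12.85 and 13.85 (difference -1.99 ± 0.33, adjusted p = 1.1e-05). Its lowest late embryos are those of array 33, on a displaced sub-grid, and without the displaced values the difference was -1.48 (adjusted p = 1.77e-07). A further alpha feature off those sub-grids (CA061084) fell by 1.29 (adjusted p = 5.19e-08), also without overlap. Hemoglobin alpha-4 (CK990531) rose, from 9.31, 10.76 and 11.32 to 11.22, 12.05 and 12.89 (difference 1.44 ± 0.38, adjusted p = 0.0026). Alpha chains were lower in 11 of 27 features and beta chains in 7 of 24. Chains of this family are near copies, so that spots may share label among them.

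Heme synthesis genes showed the same mixture. Of 9 features of heme synthesis 3 were lower and 1 higher (33.3% and 11.1%, against 18.4% and 19.1% of all tested features). The nonspecific 5-aminolevulinate synthase, the first enzyme of the pathway, fell by 1.21 ± 0.22 in CA053062 (adjusted p = 6.13e-05) and rose by 0.61 ± 0.22 in CK990383 (adjusted p = 0.0303). The call of CK990383 was lost without array 13, 17, 33, 34, 38 or 41 (adjusted p 0.0519 to 0.0838 with limma). Carbonic anhydrase, which interconverts carbon dioxide and bicarbonate and is abundant in red cells, was lower in 5 of 12 features. In CB494301 it went from 13.10, 13.89 and 14.64 to 10.78, 11.46 and 11.91 (12 embryos each, difference -2.39 ± 0.22, adjusted p = 5.44e-10), without overlap. In the wider list of ion transport genes of gill and kidney, 15 of 58 were higher and 8 lower (25.9% and 13.8%). Over all tested features the shares were 19.1% and 18.4%. The sodium pump subunits were higher in 6 of 12 features, with a beta-3 subunit (CA047068) 3.06-fold higher by the bound given above (adjusted p = 6.78e-05).

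Immune genes were mixed. Features of immunoglobulins and lymphocytes were lower in 17 of 39 and higher in 1 (43.6% and 2.56%, against 18.4% and 19.1% of all tested features). Their median of -0.52 was the lowest among the 40 lists. This list, like that of egg and oocyte genes, was set up for cells that a whole embryo should hold few of. The source of its signal was not tested. Immunoglobulin lambda-like polypeptide 1 (CB513665) went from a median of 11.28 to 9.51 (difference -1.40 ± 0.31, adjusted p = 0.000441), and a membrane-bound Ig mu feature (CA048851) rose by 0.64 ± 0.22 (adjusted p = 0.0219), a call lost without array 13, 38 or 41 (adjusted p 0.0517 to 0.0539). The mean level over the list was 11.27 to 12.002 in single embryos of 15 dpf and 10.74 to 11.40 in those of 28 dpf, ranges that overlap, and the part of signal over background in this shift was not tested. Genes of antigen presentation were higher in 23 and lower in 27 of 140 (16.4% and 19.3%), near the 19.1% and 18.4% of all tested features. The invariant chain of MHC class II (CB497250, H-2 class II gamma chain), which guides class II molecules through the cell, went from 10.42, 11.13 and 12.30 to 13.54, 14.33 and 14.77 (difference 3.13 ± 0.20, adjusted p = 3.15e-15), without overlap. LECT2 (CX984314), a leukocyte chemotaxin made in the liver, fell from 13.19, 13.77 and 14.76 to 11.95, 12.40 and 12.72 (difference -1.505 ± 0.18, adjusted p = 3.29e-08).

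Genes of cell division and DNA replication were lower in 36 of 88 features and higher in 5 (40.9% and 5.68%), with a median of -0.36. Over all tested features 18.4% were lower and 19.1% higher. Calls in either direction made 46.6% of this list and 37.5% of all tested features. Geminin (CB491775), which blocks the relicensing of replicated DNA, went from 11.38, 12.30 and 13.44 to 9.34, 10.11 and 11.47 (difference -2.17 ± 0.25, adjusted p = 4.7e-09). Only at the edge did its groups overlap. Origin recognition complex subunit 1 (CA051514) fell by 1.94, the large subunit of ribonucleotide reductase (CB487655) by 1.62, cyclin B1 (CA052885) by 1.41 and the anaphase activator CDC20 (DN047544) by 1.40. The replication helicase subunit mcm6-B was read by features of opposite sign. In CB488219 it went from 11.59, 12.27 and 12.59 to 8.90, 10.57 and 11.39 (difference -1.64 ± 0.22, adjusted p = 3.71e-07), and in CB497401, with the same description, it rose by 1.48 ± 0.25 (adjusted p = 2.29e-05).

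Regulators of early differentiation were among the non-overlapping falls. Class B basic helix-loop-helix protein 5 (CA053004), a neural transcription factor in mammals, went from 11.12, 11.97 and 12.79 to 9.30, 10.10 and 11.11 (difference -1.85 ± 0.29, adjusted p = 4.57e-06). HES-5 (CA058589), a Notch target that keeps neural progenitors from differentiating in mammals, went from 11.26, 12.11 and 13.10 to 9.46, 10.34 and 11.19 (difference -1.79 ± 0.22, adjusted p = 1.95e-08). Homeobox, Sox, Pax and forkhead genes were higher in 5 and lower in 6 of 26 (19.2% and 23.1%), near the 19.1% and 18.4% of all tested features. Hox-A5 (CA051834), which sets position along the body axis, fell by 1.18 ± 0.25 (adjusted p = 0.000277), and forkhead box N2 (CA041992) rose by 1.21 ± 0.25 (adjusted p = 0.000242).

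Neuronal and hormone genes were split. Of 57 neuronal and synaptic features 12 were higher and 10 lower (21.1% and 17.5%), near the 19.1% and 18.4% of all tested features. Beta-synuclein (CB497104), a presynaptic protein, went from a median of 10.02 to 11.46 (difference 1.56 ± 0.27, adjusted p = 2.25e-05), and a glutamate receptor feature (CA051083) from 11.12 to 9.64 (difference -1.48 ± 0.29, adjusted p = 0.000121). Of 13 peptide hormone features 2 were higher and 1 lower (15.4% and 7.69%). Calls in either direction made 23.1% of this list and 37.5% of all tested features. Prolactin (CA048029), the pituitary hormone of freshwater adaptation in fish, went from 8.02, 9.58 and 10.65 to 10.37, 10.84 and 12.04 (difference 1.49 ± 0.27, adjusted p = 3.46e-05). Somatostatin IA (CB494026) fell by 0.75 ± 0.26 (adjusted p = 0.0223), a call lost without array 18, 36 or 37 (adjusted p 0.0506 to 0.0563).

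Cytoplasmic ribosomal proteins gave few calls, and their direction rested on the scaling. Of 179 features of 40S proteins 10 were higher and 11 lower, and of 220 of 60S proteins 16 and 12, with medians of -0.09 and -0.07. Calls in either direction made 11.7% and 12.7% of these lists, against 37.5% of all tested features. With arrays centred on their medians in place of Aquantile, 25 of the 40S features were higher and 1 lower, and 50 and 1 of the 60S features, where the median of all features was 0.16. S20 (CB494488) rose by 2.26 ± 0.34 (adjusted p = 1.91e-06) from levels near the controls, L4-B (CA046109) by 1.57 ± 0.22 (adjusted p = 7.89e-07), and L12 (CB506199) fell by 1.99 ± 0.57 (adjusted p = 0.00604). L12 lies on the displaced sub-grids of arrays 23 and 38 and could not be tested without both. Without array 38 its call was lost (difference -0.84, adjusted p = 0.247), without female array 39 of 28 dpf the difference was -3.14, and the call was also lost with poor spots kept (adjusted p = 0.0622), with array means (0.0516) and with a mixed model for the feature alone (0.0787). S14 (CB492894) fell by 0.97 ± 0.36 (adjusted p = 0.0287), and without the displaced sub-grids this call was lost (difference -0.56, adjusted p = 0.0756), as it was without array 26 (adjusted p = 0.138) or 41 (0.0604). Mitochondrial ribosomal proteins were higher in 16 and lower in 14 of 70 (22.9% and 20%), near the 19.1% and 18.4% of all tested features. They were led by L15 (CB505699, 1.28 ± 0.28) and S15 (CA059239, -1.36 ± 0.31, or -0.91 without the displaced sub-grids). Translation factors were higher in 18 and lower in 18 of 147 (12.2% each). Calls in either direction made 24.5% of this list, against 37.5% of all tested features. The scaffold eIF4G1 (CB496042) went from 11.16, 11.58 and 13.09 to 7.99, 9.98 and 10.86 (difference -1.90 ± 0.23, adjusted p = 1.36e-08), and elongation factor 1-delta (CA044505) rose by 1.48 ± 0.25 (adjusted p = 1.28e-05).

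Nuclear and folding genes were called higher less often than all tested features, and lower about as often. Splicing factors and hnRNPs were lower in 34 and higher in 13 of 150 (median -0.15), ribosome biogenesis genes in 14 and 7 of 67 (median -0.12) and chaperones in 18 and 8 of 88 (median -0.15). The lower shares were 22.7%, 20.9% and 20.5%, near the 18.4% of all tested features. The higher shares were 8.67%, 10.4% and 9.09%, against 19.1%. Calls in either direction made 31.3%, 31.3% and 29.5%, against 37.5%. With median-centred arrays splicing factors were lower in 29 and higher in 14, while ribosome biogenesis turned to 8 lower and 10 higher and chaperones to 5 lower and 9 higher. Splicing factor SFRS9 (CA046595) fell by 1.54 ± 0.47 (-1.29 without the displaced sub-grids), U1-C (CB505303) rose by 1.18 ± 0.33, and rRNA methyltransferase 1 (CA054637) fell by 1.51 ± 0.22. The ribosome biogenesis protein TSR1 (CB497018) went against its list, with a difference of 3.30 ± 0.49 (adjusted p = 2.62e-06), or 4.0 without the displaced sub-grids. Chaperonin subunit theta (CA058618) rose by 1.42 ± 0.35 and the co-chaperone DNAJC3 (CA058829) fell by 1.20 ± 0.25. Tubulins, which form microtubules, were lower in 11 of 38 and higher in none (median -0.24), but lower in 1 and higher in 2 with median-centred arrays. Calls made 28.9% of the tubulins in the main setting and 37.5% of all tested features. Relative to all features their median was -0.26 to -0.0031 over the settings listed further below. Tubulin alpha in BU965665 fell by 1.43 ± 0.41 (adjusted p = 0.00623) and, without the displaced sub-grids, by less (difference -0.57, adjusted p = 0.0465).

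Chromatin and secretory genes had no common direction, while antioxidant enzymes were more often higher than lower. Over all tested features 19.1% were higher and 18.4% lower. Histones were higher in 6 and lower in 5 of 41 (14.6% and 12.2%), where a histone H1 (CA048620) fell by 0.99 ± 0.19 (adjusted p = 9.48e-05). Chromatin proteins were higher in 9 and lower in 8 of 37 (24.3% and 21.6%), with HMGB1 (CA057032) at 1.29 ± 0.19 and the lamin-B receptor (CA063023) at -1.20 ± 0.26. Secretory pathway genes were higher in 13 and lower in 8 of 75 (17.3% and 10.7%), with signal recognition particle 9 kDa (CA042949) at -1.06 ± 0.18 and protein disulfide-isomerase A3 (CB516895) at 1.48 ± 0.42. The latter lies on the displaced sub-grids of arrays 23 and 38 and could not be tested without both. Without array 23 its call was lost (0.59, adjusted p = 0.23), without male array 28 of 28 dpf the difference was 2.37, and the call was also lost with loess only (adjusted p = 0.129), array means (0.0648) and a mixed model for the feature alone (0.0704). Cathepsins were higher in 6 and lower in 1 of 29 (20.7% and 3.45%), a higher share near that of all tested features. Calls in either direction made 24.1% of this list and 37.5% of all tested features. Without the displaced sub-grids 5 cathepsins were higher. Cathepsin S (CB514208) rose by 1.33 ± 0.50 (adjusted p = 0.0358), a call that was lost without the displaced sub-grids (0.78, adjusted p = 0.216) and without array 17, 18, 26, 31 or 39 (adjusted p 0.0518 to 0.0899), and cathepsin L (CB491002) fell by 1.16 ± 0.35 (adjusted p = 0.00852). Features listed as antioxidant enzymes were higher in 24 and lower in 9 of 80 (30% and 11.2%, median 0.29). Glutathione S-transferase P (CB497579) was at 1.497 ± 0.26. Thioredoxin-like protein 4A (CA050734), in the list by its name alone, was at -1.45 ± 0.39, or -1.47 without the displaced sub-grids.

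Some of the largest changes belonged to no list. Transmembrane 4 L6 family member 4 (CB493845), a membrane protein of liver and intestine in mammals, went from 7.87, 10.54 and 11.59 to 13.25, 13.77 and 14.06 (difference 3.48 ± 0.28, adjusted p = 2.44e-13). A SEC31A-like feature (CB512330), named for a coat protein of vesicles leaving the endoplasmic reticulum, fell from 10.92, 11.97 and 12.96 to 8.87, 9.60 and 10.77 (difference -2.22 ± 0.27, adjusted p = 3.11e-08). The mitochondrial ES1 protein homolog (CB516668) fell from 13.15, 13.69 and 14.19 to 10.92, 11.73 and 12.41 (difference -2.05 ± 0.16, adjusted p = 1.02e-13). None of these groups overlapped. A RanBP-type and C3HC4-type zinc finger protein (CA060518) fell by 1.47 ± 0.25 and cytochrome P450 4F3 (CA057516), which oxidizes fatty acid derivatives, by 1.44 ± 0.21, both without overlap. Among features with no description, CB493139 went from a median of 10.24 to 14.71 (difference 4.68 ± 0.38, adjusted p = 3.16e-12) and CB511907 from 11.70 to 9.41 (difference -2.37 ± 0.35, adjusted p = 9.98e-07).

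Cytoplasmic actin 1, often taken as a reference gene, was read by 12 features with differences between -0.41 and 0.71. In CK991291 the levels were 14.67, 15.07 and 15.58 at 15 dpf and 14.74, 15.10 and 15.51 at 28 dpf (difference 0.03 ± 0.13, adjusted p = 0.88). CB512174 was called higher (0.71 ± 0.21, adjusted p = 0.00631, or 0.43 without male array 31 of 15 dpf) and CB497624 lower (-0.41 ± 0.13, adjusted p = 0.0107), and the other 10 were not called. With median-centred arrays CK991291 was called higher (0.58, adjusted p = 0.0137). So were the other features not called here except CA045746 and CA047595, by up to 0.81 (CA057774). CB497624 lost its call there (-0.07, adjusted p = 0.765), so the flat level of this gene depends on the scaling.

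**Figure D4:**
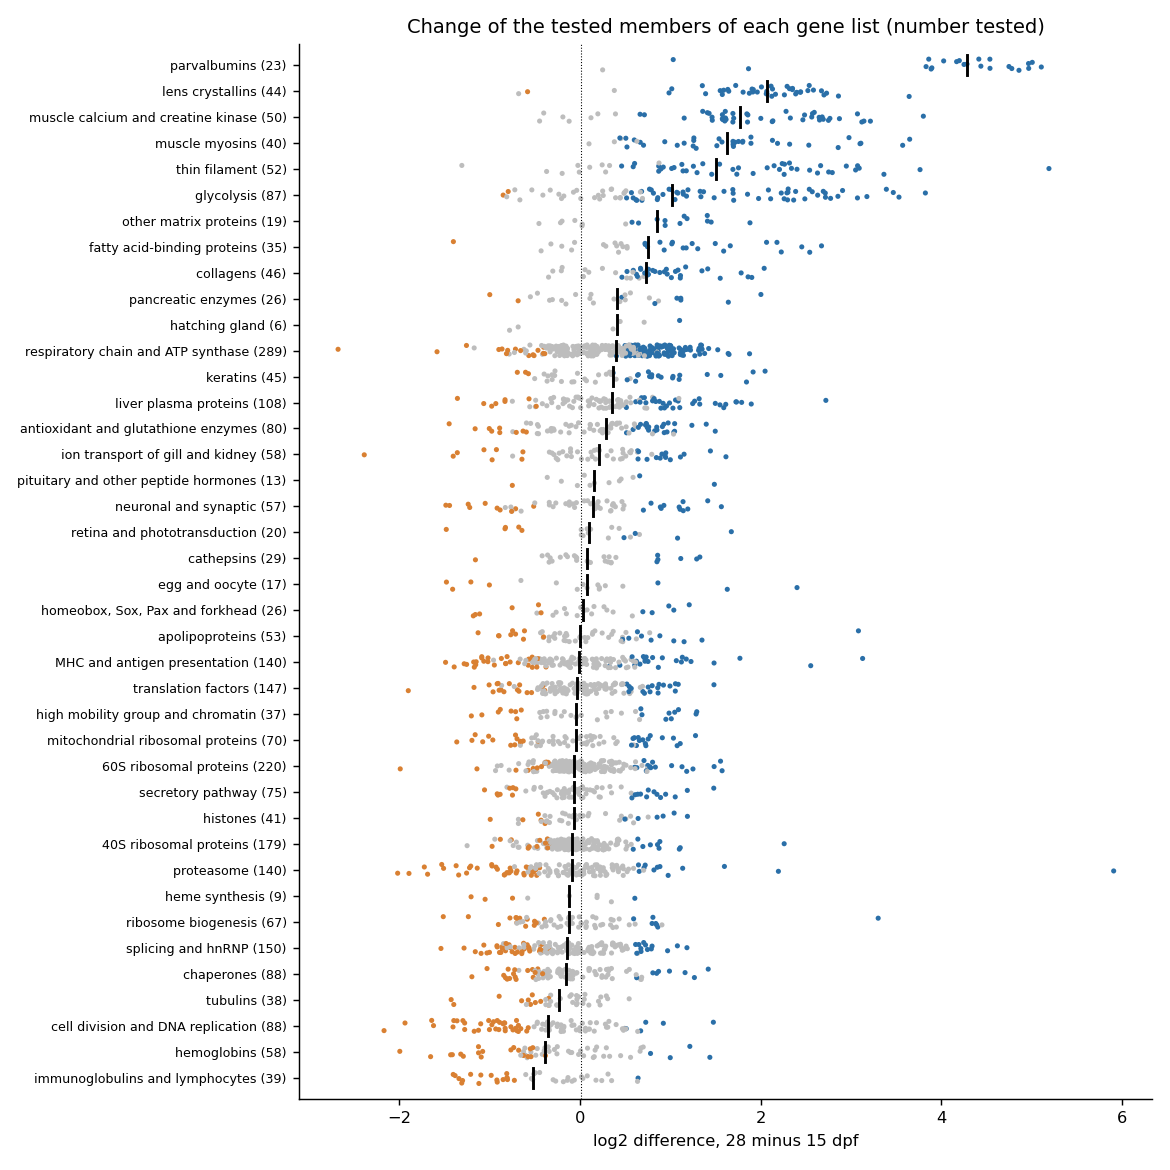
Difference between 28 and 15 dpf (log2, horizontal axis) of each tested member of the 40 gene lists, ordered by the median (black bar), with the number tested in brackets. Blue points were called higher, orange points lower and grey points were not called. Parvalbumins have the highest median (4.28) and immunoglobulins and lymphocytes the lowest (-0.52).

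The level of all features depends on the scaling. The medians of the lists were therefore also taken relative to the median of all tested features under 7 settings. These were the main one, displaced sub-grids left out, no background subtraction, single-channel quantiles, median-centred arrays, loess only and arrays centred on foreign DNA spots. Median-centred arrays, loess only and foreign DNA centring differ by a constant per array. That moves all features nearly alike, so the relative medians of these settings could differ little. Parvalbumins stayed between 2.61 and 4.40, lens crystallins between 1.39 and 2.15 and muscle myosins between 1.31 and 1.86. Glycolysis stayed between 0.56 and 1.01 and collagens between 0.54 and 0.97. Cell division stayed between -0.51 and -0.22, immunoglobulins between -0.68 and -0.34 and hemoglobins between -0.41 and -0.27. The sign turned for 40S ribosomal proteins (-0.10 to 0.16), 60S ribosomal proteins (-0.08 to 0.20), apolipoproteins (-0.04 to 0.20), neuronal genes (-0.03 to 0.13), egg and oocyte genes (-0.03 to 0.09), homeobox, Sox, Pax and forkhead genes (-0.07 to 0.04) and antigen presentation (-0.04 to 0.02). Higher features were 51% of the calls here, 8.79% without scaling between arrays and 99.4% with arrays centred on the Arabidopsis and GFP spots, so the even split between rises and falls rests on the scaling.

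Females and males share no array and no embryo, so each sex gives its own comparison of 4 arrays with 4. In females 3108 features were called (26.7% of those tested, 1608 higher and 1500 lower) and in males 1706 (14.6%, 863 and 843). Of the features called in females 2966 (95.4%) had the same sign in males, and 1208 were called there too, 1207 of them (38.8% of the female calls) with the same sign. Of those called in males 1667 (97.7%) had the same sign in females, and 70.8% were called there with it. Over all 11653 tested features 76.9% had the same sign, and the differences of the sexes correlated at r = 0.778, across features that are not independent of each other. Of the features called over all embryos, the median rise was 1.05 in females and 0.86 in males, and the median fall -0.99 and -0.82. Female array 14 of 15 dpf and male array 41 of 15 dpf weighed on the counts, which were 1946 in females without array 14 and 1055 in males without array 41.

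List medians of the sexes were close in some lists and apart in others. Parvalbumins had medians of 4.37 in females and 4.23 in males, lens crystallins of 2.10 and 1.95, glycolysis of 1.19 and 1.02, cell division of -0.45 and -0.32 and hemoglobins of -0.27 and -0.30. Fatty acid-binding proteins had medians of 0.91 and 0.57, hatching gland genes of 0.18 and 0.57, peptide hormones of 0.42 and 0.17 and apolipoproteins of 0.08 and -0.13, and no feature of these 4 lists was called for a difference between the sexes. Fast troponin I (CB509543) rose by 5.06 in females and 5.32 in males, and geminin (CB491775) fell by 2.26 and 2.08. The fast myosin heavy chain feature (CB497013) rose by 4.22 in females and 3.08 in males, a gap that the test of the difference did not call.

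The test of the difference itself called 1 feature between the sexes (0.00858% of those tested). Cornichon homolog 4 (CA063234), a cargo receptor of the secretory pathway, changed by -1.32 in females and 0.90 in males (difference of the changes -2.22 ± 0.36, adjusted p = 0.00436). In females it went from 10.06, 10.71 and 12.33 (lowest, median and highest of 8 embryos) to 8.73, 9.61 and 10.40 (6 embryos), and in males from 10.08, 10.20 and 10.79 to 10.99, 11.22 and 11.38 (8 embryos each). At 28 dpf all measured females were below all males. The call was lost without female array 36 of 28 dpf (adjusted p = 0.0547) and under other settings. The features next in order were not called: an undescribed feature (CK990427, 2.51), aryl hydrocarbon receptor 2b (CA058992, -2.82), ubiquitin-conjugating enzyme E2 D4 (CB508919, 1.99) and an undescribed feature (CB487825, 1.80). These differences of changes had a median standard error of 0.48, so that the 95% interval stayed within 2-fold for 771 of the 4375 called features (17.6%). In simulated data, with 100 features of each size, 9% of differences of 1 log2 unit and 59% of 2 units were recovered. These shares depend on how many features differ, and 1 was called here, so they do not give the sensitivity of this test. For most of the called features the intervals did not exclude a 2-fold difference between the sexes.

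OSU/CW and OSU/OSU embryos lie on the same arrays, so the values of the genotypes are given side by side. In OSU/CW 3871 features were called (33.2% of those tested) and in OSU/OSU 3316 (28.5%). The median rise of the features called over all embryos was 0.98 in OSU/CW and 0.91 in OSU/OSU, and the median fall -0.95 and -0.86. Parvalbumin beta 1 (CA770081) rose by 5.24 and 4.97, the fast myosin heavy chain (CB497013) by 3.70 and 3.60, serotransferrin (CB497986) by 2.73 and 2.71 and GAPDH (CA039027) by 3.68 and 3.97. The lists had medians of 4.28 and 4.33 for parvalbumins, 2.23 and 1.91 for lens crystallins, 0.97 and 0.97 for glycolysis, -0.42 and -0.38 for cell division and -0.30 and -0.49 for hemoglobins.

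No feature was called for a different change between the genotypes (0% of those tested, smallest adjusted p = 0.874 with limma). At an unadjusted p below 0.05 there were 643 features, against 583 that evenly spread p-values would give, and for the sexes 673. The features first in order were gonadotropin-releasing hormone 1 (CA044489, -0.89), cytochrome c oxidase VIa (CB493553, 1.13), the ubiquitin ligase TRIM25 (CA060690, 0.83), the phosphatase PTP4A2 (CB512673, -0.72) and cardiac myosin light chain 1 (CB493388, 0.88). Cardiac light chain 1 went from a median of 10.16 to 11.68 in OSU/CW and from 10.37 to 10.87 in OSU/OSU, with overlap between the genotypes at 28 dpf. Since the comparison lies within arrays it was sharper than that of the sexes, with a median standard error of 0.27, and the 95% interval stayed within 2-fold for 3643 of the 4375 called features (83.3%). In simulated data, with 100 features of each size, 59% of differences of 1 log2 unit and 97% of 2 units were recovered. As for the sexes, these shares depend on how many features differ and do not give the sensitivity in these data.

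Comparisons that cross sex and genotype share no array, but they share the normalization, the fit and the shift in signal over background with age. Of 2709 features called in OSU/CW females 92.1% had the same sign in OSU/OSU males, and of 1806 called in OSU/OSU females 96.5% had it in OSU/CW males, against 73% and 75.7% of all tested features. Of the 4375 features called over all embryos 4250 (97.1%) had the same sign in all 4 combinations of sex and genotype, against 60% of all tested features. The first of these shares is raised by the choice of features, which used the same embryos.

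**Figure D5:**
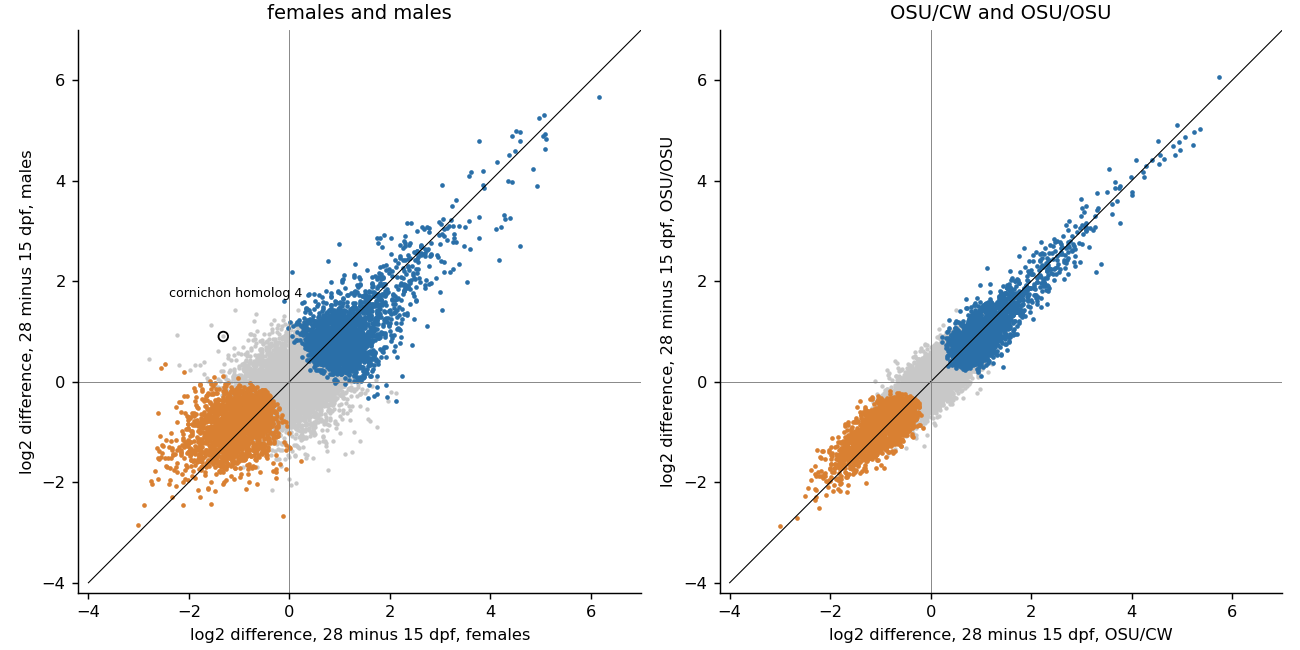
Difference between 28 and 15 dpf (log2) of the 11653 tested features in females against males (left) and in OSU/CW against OSU/OSU embryos (right), with the line of equal change. Blue and orange mark features called higher and lower over all embryos, and cornichon homolog 4 is circled at -1.32 in females and 0.90 in males. The genotypes share arrays, so the spread of the points cannot be compared between the panels.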

How the data were processed

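The authors deposited for each array the mean intensity that the scanner read in each channel for each spot and for its surroundings, on a linear scale, without background subtraction or normalization. Scanner and software: not given in the sources used here. Here the deposited series table of processed values was not used.

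Background was corrected with normexp (offset 50) in limma 3.58.1 (R 4.3.3), channels were brought together by loess within arrays, control spots at weight 0, and arrays by Aquantile. Spots marked poor were set to missing, which was 189 to 1446 per array, and the 37 identifiers with several spots were averaged. A feature was tested with a signal above the 90th percentile of the 1003 negative control spots (907 blank or empty, 96 Arabidopsis) in at least 16 of 48 channels and measured on 2 or more arrays of every sex at every time point. Arabidopsis spots were bright, so the percentile lies at the upper edge of the blank spots.

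As in the study's mixed model, all 24 arrays were fitted with fixed terms for dye and for 12 treatments of sex, genotype and age and a random block for array (correlation 0.532). Variances were moderated by limma (prior degrees of freedom 6.9), and p-values were adjusted by Benjamini-Hochberg over all 11653 tested features. Differences are adjusted for dye and missing spots and need not equal differences of plain means. The labels number arrays only. They do not say whether embryos share parents. Each embryo was read in 1 channel of 1 array, so p-values rest on the spread of these embryos and their hybridizations together, over all 24 arrays. Array quality was compared with exact permutation tests, two-sided, and the number of arrays limits precision.

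Gene lists were matched to the files' descriptions. Named were the 12 largest non-overlapping rises and falls with a description, the largest called rise and fall of each list and of features without a description, the 5 smallest p-values of each test of a difference between sexes or genotypes, and all of cytoplasmic actin 1. A list leader, 1 feature, is not reported here. Other features named were chosen after their values were seen. The lists and features were chosen with earlier results of these data known. Of the identifiers 0 of 16028 matched the RefSeq table, so no sequence or position is given. The code was tested on simulated data of 11653 features, where 13.4%, 71.6% and 98.5% of changes of 0.5, 1 and 2 log2 units between the ages were recovered. Only 67, 67 and 66 features carried these changes, against 4375 features called in the data. The adjusted p depends on that number, so these shares do not give the sensitivity of the comparison of ages. Alternatives changed the background, scaling, filter, poor spots, dye term, arrays, model and call rule, and arrays were left out singly. Leaving out the displaced sub-grids and centring on foreign DNA spots were chosen after seeing the data.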

Additional observations from a re-analysis of the deposited data

Results flagged for a closer look

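In groups of 4 to 10 arrays, a value far from the others by Dixon's criterion was found in 24 cases, and chance alone gives about 1 in 20 groups. Male array 18 of 15 dpf had 189 poor EST spots, against 559 or more on the others. The other 23 were array means of 220 groups of named features, 8 of them on male array 33, which holds 3 displaced sub-grids.

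On array 33 at 28 dpf the lone values were 11.6 for chymotrypsin B (CA050822), 8.81 for hemoglobin alpha (CA064277), 10.43 for S14 (CB492894), 10.19 for TSR1 (CB497018), 9.35 for gamma crystallin M2 (CB497240), 11.1 for apolipoprotein Eb (CB497987), 14.78 for cathepsin S (CB514208) and 10.72 for trypsin (CK990912). Female arrays of 28 dpf gave 7.85 for vitellogenin (CA051633) and 8.09 for eIF4G1 (CB496042) on array 36, 10.99 for glutathione S-transferase P (CB497579) on array 38 and 9.59 for cytoplasmic actin 1 (CA047595) on array 39. Male array 28 of 28 dpf gave 11.56 for 5-aminolevulinate synthase (CA053062).

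At 15 dpf the lone values in females were 9.57 for cytoplasmic actin 1 (CA047595) and 13.87 for NDUFA4 (CB495182) on array 13. Array 14 gave 12.99 for eIF4G1 (CB496042), 12.26 for complement C3-1 (CB514355) and 9.63 for hemoglobin alpha-4 (CK990531). Array 35 gave 11.85 for cornichon homolog 4 (CA063234). In males they were 8.25 for parvalbumin beta 1 (CA770081) and 11.9 for the class II invariant chain (CB497250) on array 41, 11.75 for SERCA1 (CB510691) on array 18 and 12.41 for cytoplasmic actin 1 (CB512174) on array 31.

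Cornichon homolog 4 (CA063234) was the feature whose change differed between the sexes (difference of the changes -2.22, adjusted p = 0.00436 with limma, 0.000701 to 0.546 over the alternatives). All measured 28 dpf females were below all 28 dpf males.

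Spots of foreign DNA gave signal far above blank spots, which had normalized log2 levels of 8.48 at 15 dpf and 8.22 at 28 dpf. Arabidopsis spots were at 12.92 and 11.51, and GFP spots at 13.08 and 11.93. Whether labelled control RNA was added is not given in the sources used here.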

How the results depend on the processing

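Counts that moved by more than 1.5 times are given here, beside 2230 higher, 2145 lower, 3108 called in females, 1706 in males, 3871 in OSU/CW and 3316 in OSU/OSU embryos. Without background subtraction females had 2060 and males 968. With loess only, 433 were higher and 4493 lower (median of all features -0.54). Among the 2221 features detected in all 32 channels, 205 were higher and 418 lower (32.9% of calls higher), with 453, 252, 575 and 450 called in females, males, OSU/CW and OSU/OSU. Centred on foreign DNA spots, chosen after seeing the data, 9128 were higher and 51 lower (median 1.22), and the groups had 8281, 6747, 8793 and 8956. At an FDR of 0.01, 1446 were higher, 1436 lower, and the groups had 1559, 779, 2344 and 1915. At least 2-fold were 946 and 857, with 2013 in OSU/CW and 1689 in OSU/OSU. The thresholds of the study's methods were also applied. Here a feature counted only where every combination of sex and genotype in the group passed with the same sign. That requirement was added here and is not part of the study's methods. It gave 610 higher and 518 lower, with 1359 in females, 1299 in OSU/CW and 1231 in OSU/OSU. The overall test was passed by 1547 features. The causes were not tested except where fewer features entered the test.

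The 1 feature that differed between the sexes became 0 without background subtraction, with detection in all 32 channels, with poor spots kept, in the 16 arrays alone, with array means and with a mixed model for each feature alone. Leaving out each array gave 1951 to 2373 higher, 1960 to 2204 lower, 1946 to 3357 in females (lowest without array 14), 1055 to 1797 in males (lowest without array 41), 3308 to 4191 in OSU/CW, 2846 to 3405 in OSU/OSU, 1 to 4 differing between sexes, 0 between genotypes, and a gap in signal over background of 0.88 to 1.11.

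Signs turned in 2 named features with loess only, CK990383 (-0.0795) and CA048851 (-0.0358), and in 15 centred on foreign DNA: CA042064 (0.48), CB497987 (0.34), CA050822 (0.22), CB498267 (0.32), CB492894 (0.46), CA048620 (0.10), BU965665 (0.0549), CB497422 (0.40), CB494026 (0.35), CA058829 (0.0335), CA042949 (0.0325), CA063234 (0.84), CA060690 (1.02), CA045746 (1.49) and CB497624 (0.98). Calls were also lost with the sign kept. Among the named changes and differences of changes this held for 14 without background subtraction and 15 with loess only. It held for 10 with the mixed model and 22 centred on foreign DNA. Calls were gained in 1 with loess only, 1 with the mixed model and 12 centred on foreign DNA. Those lost without background subtraction included CA053062 (-0.38), CA051083 (-0.51), CB498267 (-0.45), CB488623 (-0.54) and CB497422 (-0.24). No paired analysis was possible because the labels number arrays, and no number is shared between the groups. Depth (signal over background) was lower at 15 dpf, where differences of dim features are least certain.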
